A study of Mus musculus with 18 samples.

Results

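The SLAM family of adhesion receptors was followed in eosinophils of the mouse small intestine through the transcripts of 8 genes, Cd84, Cd48, Slamf1, Slamf6, Slamf7, Slamf8, Slamf9 and Ly9. These members make up 8 of the 22708 genes of the table and were chosen with earlier results of these data known. RNA was sequenced in bulk from eosinophils sorted by flow cytometry as CD11b+MHC-II-SiglecF+SSChi cells. The 18 samples came from C57/BL6 mice that were wildtype (WT), Ahr knockout (Ahr-/-) or Ahrr knockout (Ahrr-/-), with 6 samples per genotype, 3 of them male and 3 female. Ahr encodes the aryl hydrocarbon receptor, a ligand-activated transcription factor, and Ahrr encodes its repressor, so the comparisons ask how the family's transcripts differ when either gene is deleted in the whole animal. No treatment was given. The labels give no ages, while the paper gives an age range for its mice and states that ages were matched within experiments. The Ahr-/- and WT mice were neither littermates nor housed together, so litter and housing cannot be told apart from genotype. The labels number the samples without naming the mice, so p-values measure the spread between these samples.

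SLAM receptors are cell surface glycoproteins of the immunoglobulin superfamily, encoded by a cluster of genes and found on most blood cells. Most of them bind a second copy of themselves on a neighbouring cell, whereas CD48 lacks a cytoplasmic tail, is held in the membrane by a lipid anchor and binds CD244. In the tails of CD84, SLAMF1, SLAMF6, LY9 and CD244, tyrosine motifs recruit the small adaptor SAP (Sh2d1a) or its relative EAT-2 (Sh2d1b1 and Sh2d1b2), which couple the receptor to kinases or hold off inhibitory phosphatases. The family is best known from T cell help to B cells and from natural killer cells, and CD48 and CD244 are also known on eosinophils.

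The deposited values were variance-stabilized expression on a log2 scale, on which a count of 0 has the value 5.02. Because the transformation could be turned back into whole counts, depth and counts per sample are also given. The total count per sample was 3842977 at the lowest, 6022409.5 at the median and 8149200 at the highest in WT. It was 6581818, 9647589.5 and 10284124 in the libraries labelled Ahr-/-, and 8788867, 10371556 and 12046933 in those labelled Ahrr-/-. WT libraries were thus the shallowest as a group, and low counts are least precise there.

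The targeted genes were looked at first. Ahr had normalized counts of 10766, 13774 and 21592 in WT (lowest, median and highest of 6), 18084, 23973 and 26050 in the libraries labelled Ahr-/-, and 8324, 11605 and 21894 in those labelled Ahrr-/-. The Ahr transcript was therefore not lower in the libraries labelled Ahr-/-. Ahrr had normalized counts of 819, 1047 and 1281 in WT and of 925, 1281 and 1888 in the libraries labelled Ahrr-/-, a difference of 0.28 on the variance-stabilized log2 scale (adjusted p = 0.683 by limma), so its transcript was present where its deletion was labelled. A total over a whole gene checks neither label when the deleted part is not known, and both genotypes are used as labelled. In the libraries labelled Ahr-/-, Ahrr, which is also a target gene of the receptor, had 0, 0.84 and 9.43 normalized counts. On the variance-stabilized scale the difference from WT was -4.83 for Ahrr (adjusted p = 4.95e-12 by limma), -4.07 for Cyp1b1 and -2.60 for Tiparp, another pair of target genes, and none of these 3 overlapped between the groups.

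Eosinophil markers were present in every library, although 9 of the 14 genes of the list passed the minimum mean. The 14 genes of the eosinophil list summed to 31928, 44127 and 48081 normalized counts in WT, 46425, 53159 and 58864 in the libraries labelled Ahr-/-, and 17957, 39353 and 48499 in those labelled Ahrr-/-. Alox15 was the most abundant of them in each genotype, with 39.7%, 47.8% and 41.6% of the list, Epx lay between 3.03 and 23.6 normalized counts over the 18 libraries, and Ear6 had a median of 0, so these 2 granule protein genes were at or near the floor. Some libraries stood apart. Ahrr-/- M1, M3 and F3 had the highest sums of the 10 epithelial markers, 57900, 54229 and 37298 normalized counts, and WT F1 the highest of WT, 25661. The eosinophil receptor gene Ccr3 was lowest in Ahrr-/- M3 and F3 (5286 and 7149), followed by WT F1 (8965). WT F3 and Ahr-/- F3 had the most genes detected, 20244 and 19694, where the next library had 17236. In bulk RNA, fewer cells of a type and less RNA per cell cannot be told apart.

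Cd84, whose product binds itself and is known from platelets, B cells, mast cells and other granulocytes, was by far the most abundant member. Its median level in WT was 3729 normalized counts per kilobase of exon, over the exons of coding transcripts in the basic annotation, which placed it at rank 63 of 19520 genes (38 of 20294 over all annotated exons), beside Ccr3 (3838) and Itgam (3484), which encodes the CD11b used in the sort. Cd48 followed with 366 and Ly9 with 151. Slamf7 (19.9) and Slamf1 (17.6) came next, with ranges over the WT samples that overlapped. Over all annotated exons Slamf1 was at 7.70 and lay below Slamf7 without overlap, so the overlap of the 2 depended on the length used. Slamf9 (2.34), Slamf8 (1.90) and Slamf6 (1.15) had the lowest WT medians, and their ranges overlapped with each other and with that of Slamf1 (from 3.10). In the libraries labelled Ahrr-/- the medians of Slamf8 (9.78) and Slamf9 (8.76) lay above that of Slamf1 (7.77). Cd244a, the counter-receptor of CD48, which is not among the 8 members, had a median of 533 per kilobase (411 over all annotated exons), between those of Cd84 and Cd48, and its WT range overlapped that of Cd48. Counted without regard to length, Cd84 made up 95.7% of the members' counts in the median WT library, 92.8% in the median library labelled Ahr-/- and 95.1% in the median library labelled Ahrr-/-. Per kilobase, the order of the medians of Cd84, Cd48, Ly9 and Slamf7 was the same in the 3 genotypes, although the ranges of Cd48 and Ly9 overlapped in the libraries labelled Ahrr-/-.

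**Figure D1:**
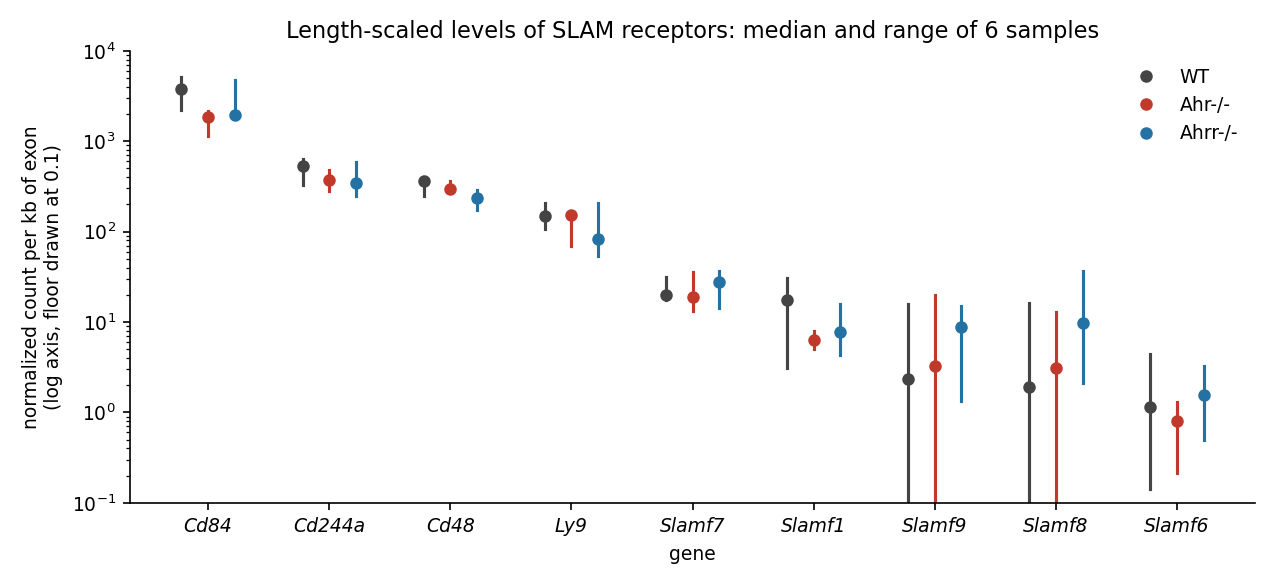
Normalized counts per kilobase of exon (log axis) of the SLAM receptor genes and Cd244a over the 6 libraries of each genotype, with values at 0 drawn at the floor of the axis. Cd84 sits at a median of 3729 in WT, above Cd244a at 533 and Cd48 at 366.

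The 8 genes lie on chromosome 1 within 1002 kilobases of GRCm38.p6. Cd84 spans 171839697 to 171890718 on the plus strand, between Slamf1 (171767131 to 171801184) and Slamf6 (171917458 to 171948958), and Cd48, Slamf7 and Ly9 lie on the other side of Slamf1. The 250 bases before the annotated start of Cd84 are shown because Cd84 was the member with a called difference, with the promoter of the target gene Ahrr for comparison. Capitals mark GCGTG, the core letters of the element that the aryl hydrocarbon receptor binds, searched on both strands. The sequences are from RefSeq, GRCm38.p6, for Cd84 chr1:171839447-171839696 (plus strand) and for Ahrr chr13:74292332-74292581 (minus strand).
Cd84: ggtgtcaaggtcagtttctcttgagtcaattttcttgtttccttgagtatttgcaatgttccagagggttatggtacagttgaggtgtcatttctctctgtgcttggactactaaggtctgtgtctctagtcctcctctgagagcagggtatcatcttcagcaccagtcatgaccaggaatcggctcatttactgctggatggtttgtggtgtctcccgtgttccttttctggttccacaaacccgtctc
Ahrr: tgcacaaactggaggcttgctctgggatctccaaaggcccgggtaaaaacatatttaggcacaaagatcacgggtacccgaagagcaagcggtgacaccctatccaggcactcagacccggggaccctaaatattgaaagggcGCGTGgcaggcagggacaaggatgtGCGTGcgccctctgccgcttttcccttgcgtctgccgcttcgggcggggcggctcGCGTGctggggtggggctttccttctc
Promoters were matched for 7 of the 8 members, all but Ly9, as windows from 250 bases before to 50 after the start. GCGTG was found in 0 of these 7 windows and in 10639 of 32851 windows of that length (32.4%). Among windows of genes of the table it was in 8455 of 21112 (40.0%). It was in 0 of 3 windows of Cd244a, Sh2d1b1 and Sh2d1b2, and once each in those of the target genes Cyp1b1 and Tiparp. The window of Ahrr held GCGTG 3 times, where the matches begin at -107, -82 and -27 from the start. The longer TNGCGTG, which contains it, was in 0 of the 7, in neither Cyp1b1 nor Tiparp, and once in Ahrr. It was in 1664 of all windows (5.07%) and in 6.3% of those of genes of the table. No match says only that these letters are not in this window.

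Cd84 was lower in the libraries labelled Ahr-/- than in WT. Its normalized counts were 14035 at the lowest, 23389 at the median and 32054 at the highest in WT, and 7125, 11520 and 13628 in the libraries labelled Ahr-/-. Each of the 6 libraries labelled Ahr-/- lay below each of the 6 WT libraries, although by little at the edge, as WT F1 and Ahr-/- M1 were 0.04 apart on the variance-stabilized log2 scale. On that scale the mean of Cd84 was 14.46 with an SD of 0.43 over the 6 WT libraries, and 13.39 with an SD of 0.34 over the 6 labelled Ahr-/-. The difference was -1.07 (95% interval -1.51 to -0.64, standard error 0.21), a level 2.10-fold higher in WT, with an adjusted p of 0.00342 by limma. Among the 11346 genes tested, Cd84 was at rank 77 from the lowest difference and at rank 298 by p. The call held in each of the 27 alternative analyses, with differences from -1.33 to -0.94 and adjusted p from 1.2e-05 to 0.0297. Among the 406 genes called lower whose exon length was known, Cd84 had the fifth highest WT level per kilobase.

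**Figure D2:**
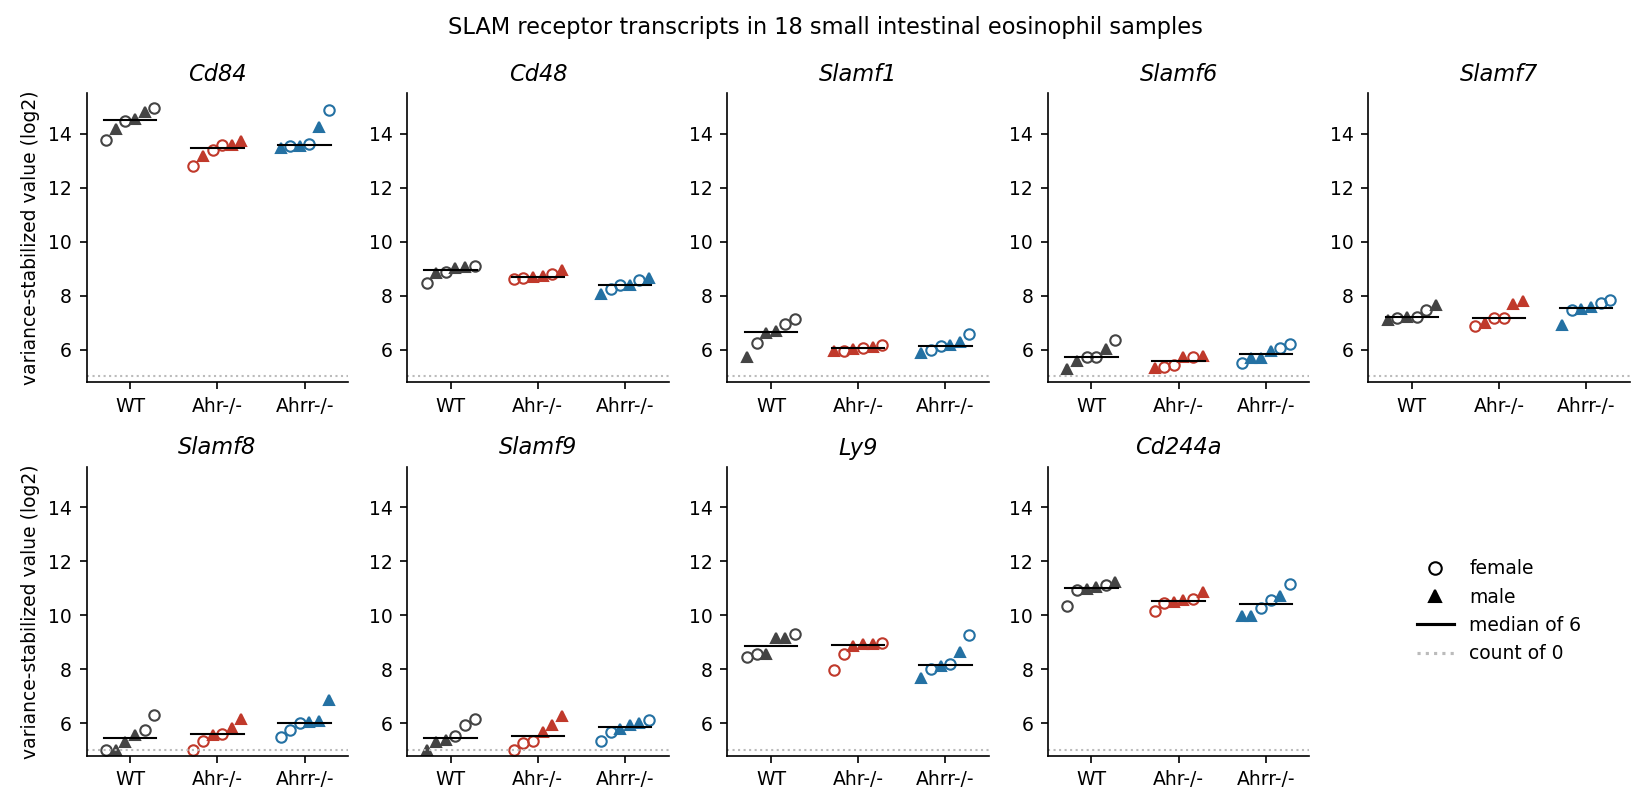
Variance-stabilized expression (log2) of the 8 members and Cd244a in each library by genotype, with circles for females, triangles for males, a line at the median of 6 and a dotted line at a count of 0. The libraries labelled Ahr-/- lie between 12.81 and 13.74 for Cd84, all below the WT libraries at 13.78 to 14.97.

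Of the 8 members 5 passed the minimum mean, and Cd84 was the 1 of the 5 called between the libraries labelled Ahr-/- and WT, where 8.84% of all tested genes were called, 3.68% as lower and 5.16% as higher. It was also the 1 member without overlap of the 6 and 6 samples, which held in the lower direction for 1.89% of the tested genes and in the higher direction for 2.62%. At an unadjusted p under 0.05, 2 of the 5 members differed, against 23.3% of all tested genes. The differences of the 5 were all below 0, with a median of -0.16, whereas over all tested genes 50.8% were below 0 and the median was -0.00. Slamf7 was near 0 and moved above it under some settings, to at most 0.064.

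Slamf1, or CD150, which binds itself and serves macrophages as a sensor of bacteria, had few counts. Its normalized counts were 8.36, 47.4 and 82.6 in WT (lowest, median and highest) and 13.7, 17.2 and 21.7 in the libraries labelled Ahr-/-. The WT libraries spread widely, with M3 the lowest of all 18 libraries, and the groups overlapped. The difference was -0.52 (95% interval -0.91 to -0.13) and not called (adjusted p = 0.0932 by limma). Over the 26 alternatives the difference lay between -1.09, by voom, and -0.42, and the adjusted p between 0.0123 and 0.236. Slamf1 was called in 4 of them, without WT M3 (0.0123), without WT F1 (0.0443), with sample weights (0.0211) and with centring on Siglecf, Ccr3 and Il5ra, so its call depended on libraries and on the analysis.

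Cd48, the lipid-anchored ligand of CD244, was at 298, 435 and 481 normalized counts in WT and at 332, 354 and 437 in the libraries labelled Ahr-/-. These ranges overlapped, and the difference was -0.15 (95% interval -0.39 to 0.08, adjusted p = 0.428 by limma, -0.41 to -0.09 over the alternatives). Its counter-receptor Cd244a had 1240, 2003 and 2360 normalized counts in WT and 1069, 1407 and 1819 in the libraries labelled Ahr-/-. The difference of Cd244a was -0.42 (95% interval -0.70 to -0.14) and not called (adjusted p = 0.0616 by limma). Over the alternatives it lay between -0.68 and -0.35, with adjusted p from 0.000396 to 0.257. WT F1 lay far below the other WT libraries for Cd244a, and without it the adjusted p was 0.00793. Cd244a was called in 4 of 27 alternatives, which besides leaving out WT F1 were quantile normalization, sample weights (0.0153) and the centring (0.000396).

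Ly9, or CD229, which binds itself and is known from lymphocytes, lay between 290 and 574 normalized counts in WT and between 191 and 439 in the libraries labelled Ahr-/-, with a difference of -0.16 (adjusted p = 0.618 by limma, -0.42 to -0.03 over the alternatives). Its medians were 412 in WT and 414 in the libraries labelled Ahr-/-, and without Ahr-/- F3, the lowest of them, the difference was -0.03. Slamf7, or CS1, which binds itself and is known from plasma cells, natural killer cells and macrophages, lay between 80.0 and 142 in WT and between 61.3 and 163 in the libraries labelled Ahr-/-, with a difference of -0.03 (95% interval -0.37 to 0.31, adjusted p = 0.942). Both overlapped between the groups. The other 3 members were below the minimum mean, with at most 31.0 normalized counts for Slamf6, 61.2 for Slamf8 and 26.2 for Slamf9 in any of the 18 libraries. Slamf6 (Ly108) binds itself and is known from lymphocytes, and SLAMF8 and SLAMF9, known from macrophages and other myeloid cells, have short tails without the tyrosine motif. Slamf6 was detected in every library, Slamf8 had a count of 0 in 2 WT libraries and 1 labelled Ahr-/-, and Slamf9 in 1 of each. Fitted with no minimum mean, these 3 genes had adjusted p of 0.685, 0.884 and 0.965 between the libraries labelled Ahr-/- and WT, so none was called at these counts.

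**Figure D3:**
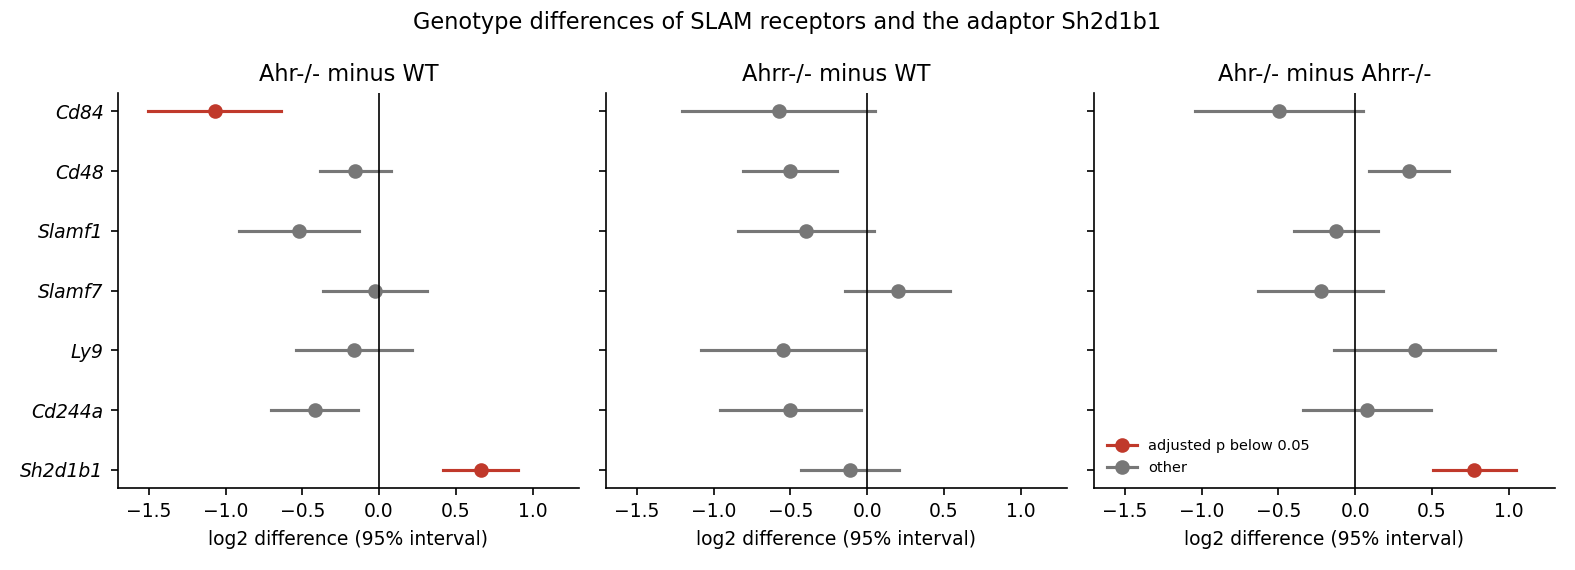
Log2 differences on the variance-stabilized scale with 95% intervals for the 5 tested members, Cd244a and Sh2d1b1 in the 3 comparisons of genotypes, red where the adjusted p was under 0.05. Cd84 is called in 1 comparison (-1.07) and Sh2d1b1 in the 2 comparisons with the libraries labelled Ahr-/- (0.66 and 0.78).

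Compared with the same WT libraries, fewer genes were called in the libraries labelled Ahrr-/-. Of all tested genes 0.0779% were called, 9 of 11546, and 0 of the 5 tested members were called by limma. At an unadjusted p under 0.05 there were 2 members, Cd48 and Ly9, where all tested genes gave 7.39%, and voom called 0 members and 4 genes. The median difference of the 5 members was -0.50, against 0.01 for all tested genes. Of the members, 4 of 5 had a difference below 0, against 48.3% of the tested genes. No member was without overlap of the 6 and 6 samples, where 0.182% of the tested genes were in the lower and 0.277% in the higher direction.

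Cd84 had 11225, 12246 and 29950 normalized counts in the libraries labelled Ahrr-/-. The distribution was uneven, since 4 of the 6 libraries lay below every WT library, while F1 (29950) and M2 (19478) lay within the WT range. The low libraries included M1, M3 and F3, which had the highest epithelial sums, and M3 and F3 also had the lowest Ccr3. The other low library, F2, had the lowest epithelial sum of the libraries labelled Ahrr-/- (11251) and their highest eosinophil sum (48499). The difference from WT was -0.58 (95% interval -1.20 to 0.05, adjusted p = 0.671 by limma, -0.79 to -0.20 over the alternatives). The smallest came without Ahrr-/- F3, M1 and M3. Cd48 had 206, 277 and 346 normalized counts in the libraries labelled Ahrr-/-, and again 4 of the 6 lay below every WT library. Its difference was -0.50 (95% interval -0.81 to -0.20), with an unadjusted p of 0.00325 and an adjusted p of 0.454 by limma, and -0.60 to -0.16 over the alternatives (adjusted p 0.154 to 1.0). Ly9 had 147, 224 and 560 normalized counts there, with 4 of 6 below every WT library and a difference of -0.55 (95% interval -1.08 to -0.02, adjusted p = 0.665, -0.75 to -0.20 over the alternatives). Slamf1 was at 11.7, 20.9 and 42.1, a difference of -0.40 (adjusted p = 0.671, -0.82 to -0.05 over the alternatives), and Slamf7 at 65.4, 128 and 170, a difference of 0.20 (adjusted p = 0.731, 0.13 to 0.54). The smallest differences of Cd48, Ly9 and Slamf1 came with the centring on Siglecf, Ccr3 and Il5ra. None of these passed the test across all genes. With no minimum mean, Slamf8 had a difference of 0.55 (adjusted p = 0.812), with its highest value, 61.2 normalized counts, in Ahrr-/- M1.

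The libraries labelled Ahr-/- and Ahrr-/- were also compared directly, since both comparisons above share the WT libraries. Here 14.9% of the 11474 tested genes were called, 8.04% as lower and 6.84% as higher, and 0 of the 5 tested members were called by limma. At an unadjusted p under 0.05 there was 1 member, Cd48, against 32.8% of all tested genes, and voom called 0 members and 1728 genes. The members' median was -0.12 and that of all tested genes 0.00, with 3 of 5 members below 0, against 49.6%. Cd84 differed by -0.50 (95% interval -1.04 to 0.05, adjusted p = 0.193), so the data did not show that its level differed between the knockouts, and the smaller difference from WT in the libraries labelled Ahrr-/- is not shown to be smaller. Over the 29 alternatives the Cd84 difference lay between -1.10 and -0.28, the smallest without Ahrr-/- F1 (adjusted p = 0.332 by limma). In 1 of the 29, the centring on Siglecf, Ccr3 and Il5ra, Cd84 was called there (-1.10, adjusted p = 0.00219), and Siglecf and Il5ra were themselves called higher in the libraries labelled Ahr-/- of this comparison. Cd48 was 0.35 higher in the libraries labelled Ahr-/- (95% interval 0.09 to 0.61, adjusted p = 0.0657, 5 of 6 above every library labelled Ahrr-/-). Cd48 was called without Ahrr-/- F1 (adjusted p = 0.0374 by limma) or without Ahrr-/- M2 (0.0404). Without Ahrr-/- F3, M1 and M3 its adjusted p was 0.494. With that centring its direction turned, to -0.25 (adjusted p = 0.237). Ly9 differed by 0.39 (adjusted p = 0.290, up to 0.98 over the alternatives), and was called without Ahrr-/- F1 (0.0388). Its direction also turned with that centring, to -0.21 (adjusted p = 0.450 by limma). Slamf1 differed by -0.12 (adjusted p = 0.533, -0.73 to -0.04 over the alternatives) and Slamf7 by -0.23 (adjusted p = 0.434, -0.83 to -0.12). With that centring both were called, at -0.73 (0.0258) and -0.83 (0.0281). No member was without overlap, which held for 1.6% of the tested genes as lower and 3.01% as higher.

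Within the sexes, Cd84 was lower in the libraries labelled Ahr-/- by similar amounts. The difference was -1.14 between the 3 female and 3 female libraries and -1.01 between the males, with no overlap in either. The interaction of genotype and sex for Cd84 was 0.13 (adjusted p = 0.982). By limma, 0 of the 5 tested members and 0 of all 11346 genes were called for this interaction. The unadjusted p was under 0.05 for 0 members and for 4.7% of the genes, and voom called 0 members. For the libraries labelled Ahrr-/- the interaction was likewise called for 0 of 5 members and 0 of 11546 genes by limma and for 0 members by voom, with 0 members and 4.71% of the genes at an unadjusted p under 0.05. Among the 5 tested members the largest interaction there was that of Ly9, -0.53 (adjusted p = 0.740). Between males and females, with genotype in the model, 0 of 5 members were called by limma and by voom, and 0 had an unadjusted p under 0.05, where 3.06% of 11468 genes were called, 2.46% as lower and 0.602% as higher in males, and 18.7% had such a p. The 351 called genes became 142 without Ahr-/- M1, 733 without WT F1 and 1310 with sample weights. The difference of Cd84 between males and females was 0.03 (adjusted p = 0.953), and that of Slamf1, the widest of the 5 tested members, was -0.19 (adjusted p = 0.512). Between the knockouts no interaction was fitted. Ly9 was there 0.76 higher in the males labelled Ahr-/- without overlap and 0.02 higher in the females. Slamf7 was 0.60 lower in the females without overlap and 0.15 higher in the males. Cd48 was higher without overlap in both sexes, by 0.29 in the females and 0.41 in the males. Whether the sexes differed between the knockouts was not tested. Against WT, Slamf1 (-0.71) and Slamf7 (-0.23) were also without overlap in the females labelled Ahr-/-, and overlapped in the males (-0.33 and 0.17). The share of all genes without overlap of 3 and 3 libraries is not given, so these separations are descriptive.

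Among the adaptors that bind the tails of these receptors, Sh2d1b1, which encodes EAT-2, was higher in the libraries labelled Ahr-/-. Its normalized counts were 138, 162 and 231 in WT, 262, 303 and 356 in the libraries labelled Ahr-/-, and 102, 157 and 194 in those labelled Ahrr-/-. The libraries labelled Ahr-/- lay above both other groups without overlap. The difference from WT was 0.66 (95% interval 0.42 to 0.91, adjusted p = 0.00156 by limma), and that from the libraries labelled Ahrr-/- was 0.78 (adjusted p = 0.00137). Against WT, Sh2d1b1 was thus higher and Cd84 lower in the same 6 libraries. The direction of Sh2d1b1 held throughout, but neither call held when each library was centred on the eosinophil genes Siglecf, Ccr3 and Il5ra, an alternative chosen after seeing the data that moved the median of all tested genes to -0.26 and -0.60. The difference was then 0.41 (adjusted p = 0.114) and 0.17 (adjusted p = 0.425), and over all alternatives it was 0.41 to 0.83 and 0.17 to 1.01. Sh2d1a, which encodes SAP, had at most 4.13 normalized counts in any library. Sh2d1b2, a near-identical copy of Sh2d1b1 with which reads may have been split, had 47.5 in WT F3 and at most 6.42 elsewhere, so the values of this pair are uncertain.
The 250 bases before the start of Sh2d1b1 (RefSeq, GRCm38.p6, chr1:170277068-170277317, plus strand) are shown because it was the adaptor called in the opposite direction to Cd84, and they hold no GCGTG.
Sh2d1b1: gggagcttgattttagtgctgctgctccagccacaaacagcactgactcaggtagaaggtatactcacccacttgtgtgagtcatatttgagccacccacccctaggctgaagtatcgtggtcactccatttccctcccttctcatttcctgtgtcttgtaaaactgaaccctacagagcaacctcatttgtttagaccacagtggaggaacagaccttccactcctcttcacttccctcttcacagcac

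Downstream of the receptors, a list of 44 adaptors, kinases, phosphatases, effectors and partner proteins known from SLAM signalling was looked up. The list was chosen with earlier results of these data known, so its share of called genes is descriptive. In the libraries labelled Ahr-/- against WT, 5 of 38 tested genes were called, 13.2% of the list beside 8.84% of all genes, with a median difference of 0.09. By role, these were 1 of 6 adaptors, 1 of 11 kinases, 0 of 5 phosphatases, 3 of 12 downstream effectors and 0 of 4 autophagy and phagosome partners. Besides Sh2d1b1, Cblb, a ubiquitin ligase that restrains receptor signalling, rose by 1.20 (adjusted p = 0.000251), and Rasal3, a Ras GTPase-activating protein, by 0.41 (adjusted p = 0.0467, up to 0.472 over the alternatives). The call of Rasal3 was lost when any of WT F1, F2, M1 or M3 or Ahr-/- F1, F2, F3, M1 or M3 was left out, with adjusted p from 0.0526 to 0.109. Over all 27 alternatives it held in 11, and over the 13 planned changes of the analysis in 8. Prkcq, the kinase PKC-theta that CD84 and SLAMF1 signalling engages in T cells, fell by 0.83 (adjusted p = 0.00163), and Vav2, a signalling protein downstream of immune receptors, fell by 0.69 (adjusted p = 0.00191). The calls of Cblb, Prkcq and Vav2 held in each of the 27 alternatives.

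**Figure D4:**
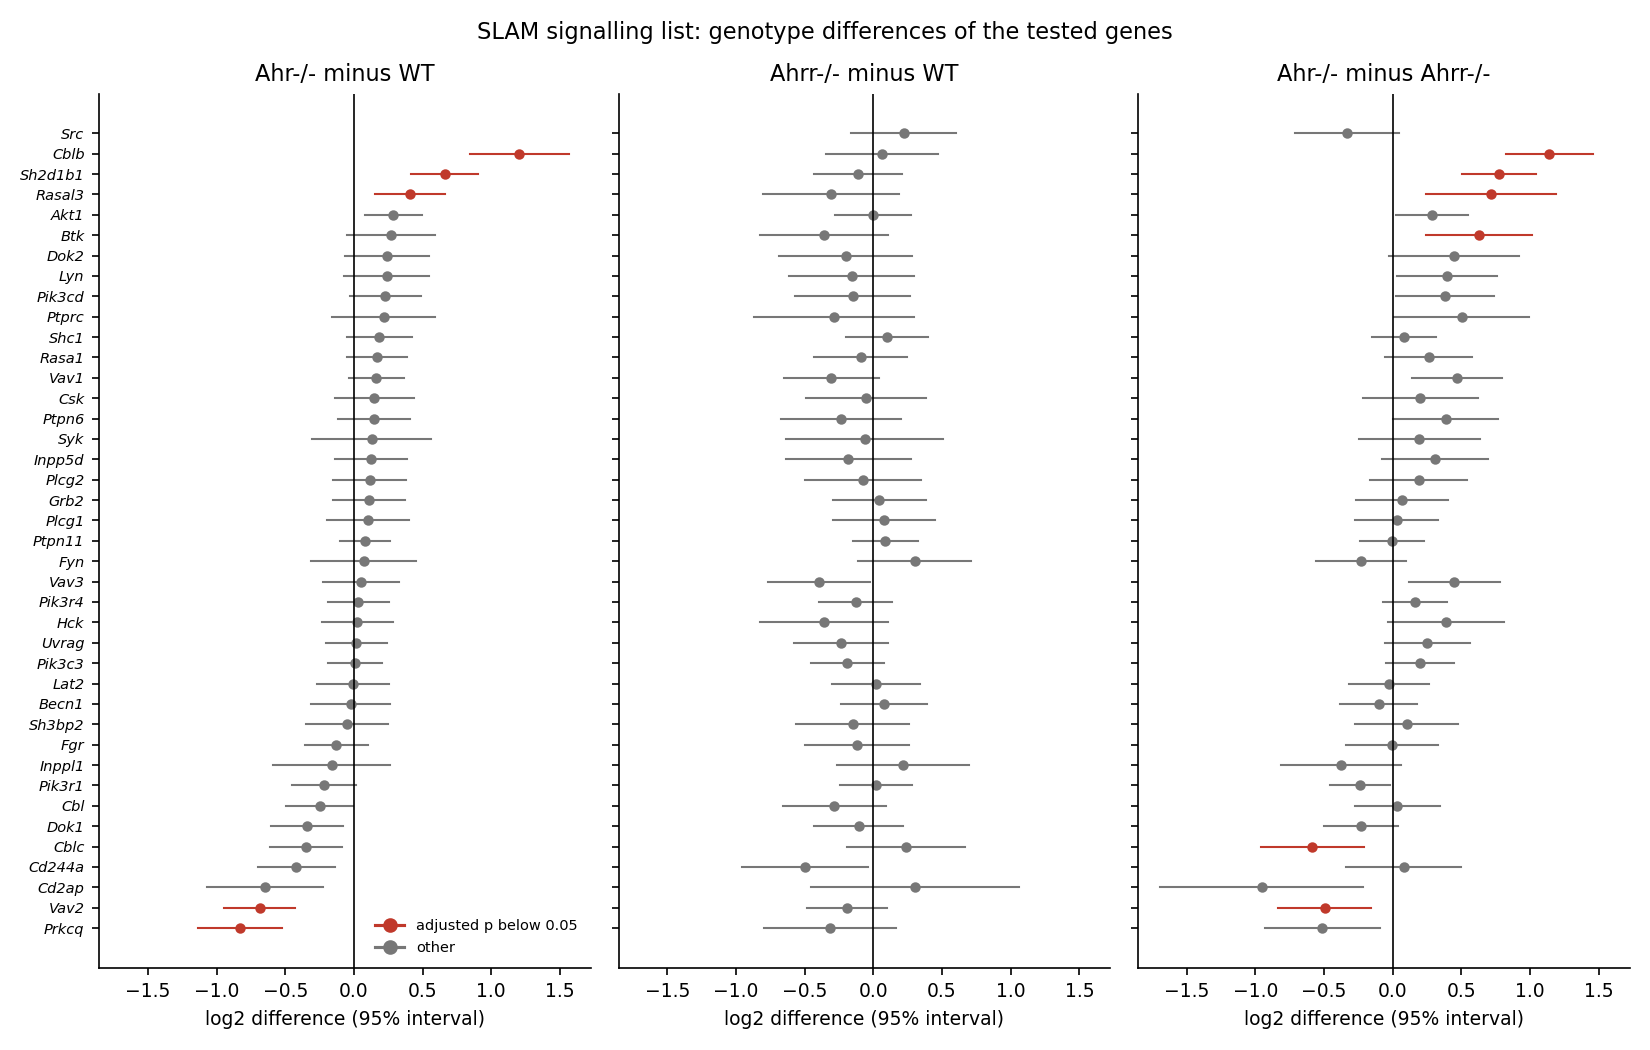
Log2 differences of the tested genes of the SLAM signalling list and Cd244a in the 3 comparisons of genotypes, red where the adjusted p was under 0.05. In the libraries labelled Ahr-/- against WT, Cblb (1.20) and Sh2d1b1 (0.66) are highest among the called genes, and Prkcq (-0.83) and Vav2 (-0.69) are lowest.

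Against WT, 0 of 39 tested genes of the list were called in the libraries labelled Ahrr-/-, and its median was -0.11. Between the libraries labelled Ahr-/- and Ahrr-/-, 6 of 39 were called (15.4%, beside 14.9% of all genes), with a median of 0.19. Cblb was 1.14 higher in the libraries labelled Ahr-/- (adjusted p = 0.0002) and was called in all 29 alternatives. The calls of Btk (0.63), Rasal3 (0.72), Vav2 (-0.50) and Cblc (-0.58) had adjusted p between 0.0335 and 0.0491 and reached 0.907, 0.590, 0.104 and 0.357 in the alternatives. Leaving out Ahr-/- F1, F2, M1, M2 or M3 or Ahrr-/- F3 or M3 ended each of these 4 calls, leaving out Ahrr-/- M1 all but that of Vav2, leaving out Ahr-/- F3 that of Rasal3, and leaving out Ahrr-/- F1, F2 or M2 that of Vav2, with adjusted p from 0.0564 to 0.104. The number of genes called in the list then lay between 2 and 9. The share of called genes in the list was near that of all genes in this comparison.

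Markers of other cells were read beside these results. The epithelial list, 10 genes led by Lyz1, summed to 9332, 11830 and 25661 normalized counts in WT, 9440, 9783 and 13234 in the libraries labelled Ahr-/-, and 11251, 32009 and 57900 in those labelled Ahrr-/-, and no gene of it had a median of 0. Of its 10 genes, 1 was called lower in the libraries labelled Ahr-/- against WT, 0 differed in those labelled Ahrr-/- against WT, and 6 were lower in the libraries labelled Ahr-/- against those labelled Ahrr-/-. Without Ahrr-/- F3, M1 and M3, the Cd84 difference of the libraries labelled Ahrr-/- from WT was -0.20, and Cd84 differed by -0.89 between the knockouts (adjusted p = 0.0557). Of the eosinophil list, 2 of 9 tested genes were called higher in the libraries labelled Ahr-/- against WT (Prg2 and Alox15) and 4 against those labelled Ahrr-/- (Siglecf, Il5ra, Prg2 and Alox15). Against WT, Cd84 was thus lower in the libraries in which Prg2 and Alox15 were higher. Centred on Siglecf, Ccr3 and Il5ra, the Cd84 difference from WT was -1.33 in the libraries labelled Ahr-/-, where the median of all tested genes was at -0.26. The part of cell composition in these differences was not tested.

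**Figure D5:**
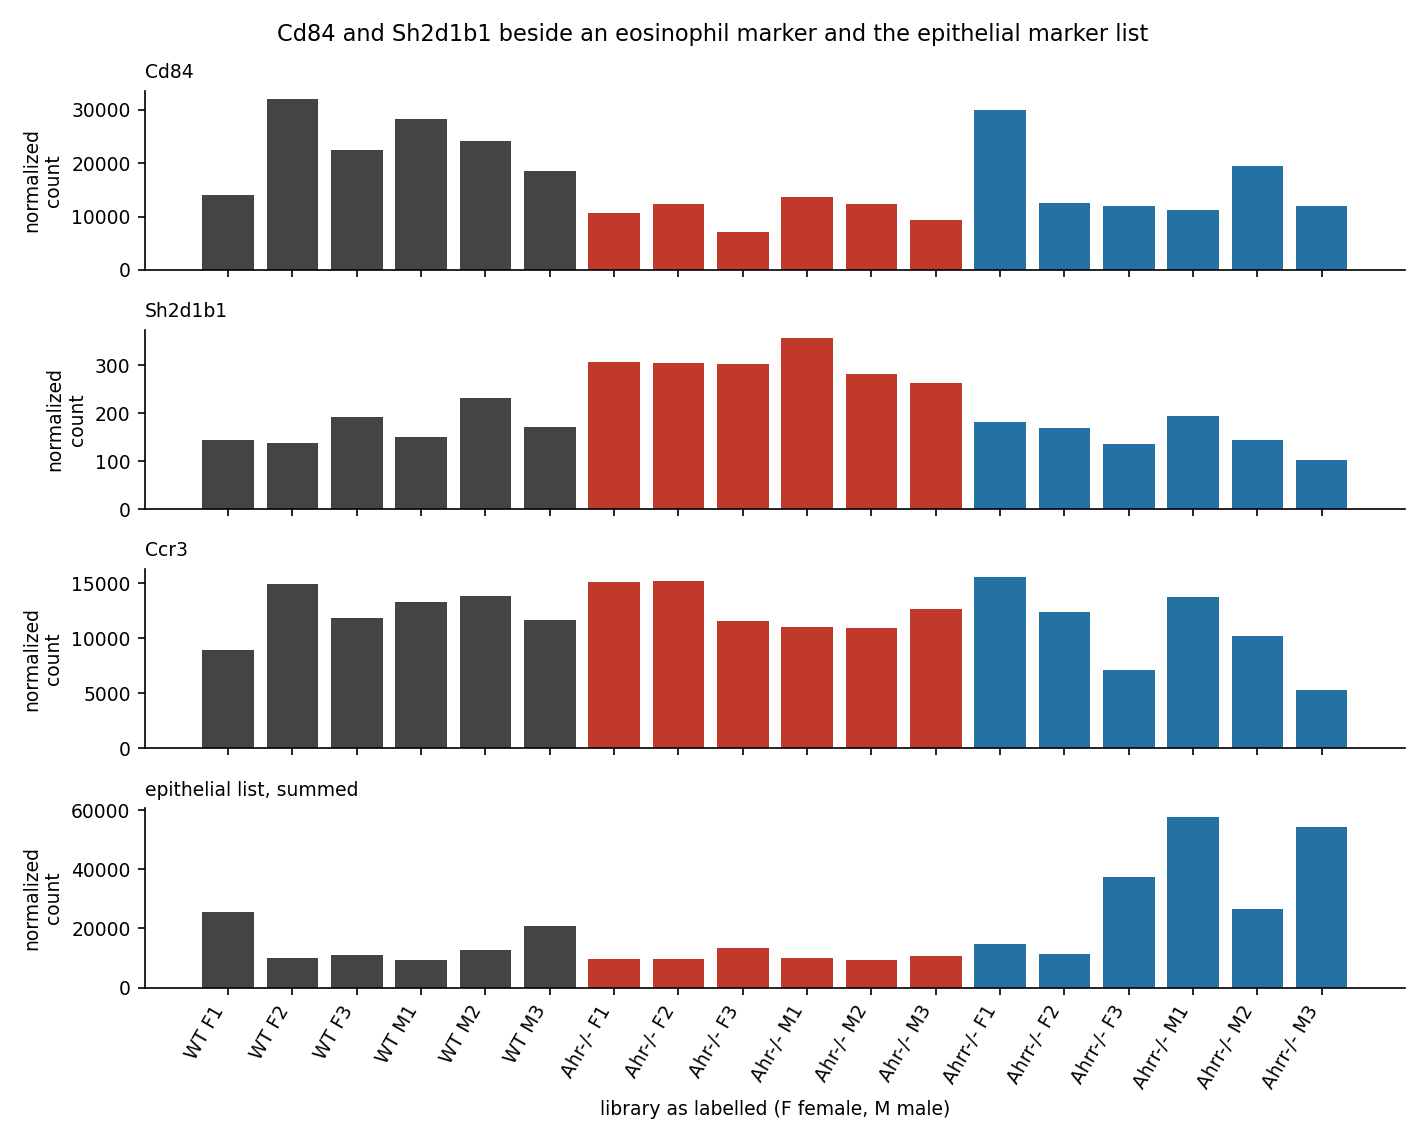
Normalized counts of Cd84, Sh2d1b1, Ccr3 and the sum of the epithelial list in each of the 18 libraries, as bars from 0. Cd84 is highest in WT (up to 32054) and in Ahrr-/- F1 (29950), and the epithelial sum is highest in Ahrr-/- M1 (57900).

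The other lists were mixed or near the floor. The neutrophil list had medians of 36170, 84323 and 35615 normalized counts in WT and in the libraries labelled Ahr-/- and Ahrr-/-, of which Retnlg made up 97.7% in WT, while Mpo, Elane and Camp had medians of 0 in each genotype. Of its 6 tested genes, Retnlg and Cxcr2 were called higher in the libraries labelled Ahr-/- against WT. S100a8 and S100a9 were called higher in those labelled Ahrr-/- against WT, 2 of the 9 genes called there, and between the knockouts S100a8 and S100a9 were called lower and Retnlg higher in the libraries labelled Ahr-/-. The mast cell and basophil list, for cells in which CD84 is known, had medians of 2641, 2265 and 2345, nearly all from Hdc, with Fcer1a, Tpsb2, Mcpt8 and Ms4a2 at a median of 0 and 0 of 2 tested genes called in each comparison. The lists of T cells and innate lymphocytes (126, 84.6 and 167) and natural killer cells (5.61, 6.68 and 14.7), where several SLAM receptors are known to be abundant, were low and had 0 called genes, with no gene of the natural killer list reaching the minimum mean. Trac, Trbc1 and Trbc2 of the T cell list and Igha, Ighm and Igkc of the B and plasma cell list were not in the table and could not be counted. Macrophage and dendritic cell genes (10213, 12437 and 11958, led by Itgax) had 3 called (2 higher), 0 and 3 (1 higher), monocyte genes (1746, 2657 and 2331, led by Plac8) 1 (higher), 0 and 0, B and plasma cell genes (1124, 745 and 4870) 0, 0 and 3 (lower), and pancreatic acinar genes (1307, 38.7 and 51.3) 3 (lower), 0 and 0. Whether the lists have a part in the differences of the members was not tested.

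Genes around the members were compared as well. The table held 26 other genes within 100 kilobases of a member or between members. Of those tested, 0 of 13 were called in the libraries labelled Ahr-/- against WT (median -0.07, beside 8.84% called of all genes), 0 of 14 in those labelled Ahrr-/- against WT (0.09, beside 0.0779%), and 2 of 14 between the knockouts (-0.10, 14.3% beside 14.9%), Itln1 (-1.86, adjusted p = 0.00871), a lectin of Paneth and goblet cells, and Tagln2 (-0.59, adjusted p = 0.0446). The counting was not stated to use strand, so reads of overlapping genes cannot be told apart. That concerns Gm37065, which overlaps the start of Slamf6, and Mir7683 within Slamf7.

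Over the 18 libraries, the gene whose values were most like those of Cd84 was Nxpe4, with a Pearson correlation of 0.948, and 0.960 after the mean of each genotype and sex was taken away. Sntb1 (0.914), Phip (0.914), Fyb (0.908) and Atad2b (0.904) followed among the 11468 genes compared. Fyb encodes ADAP, an adaptor of immune receptor signalling. The correlation over 18 libraries includes the differences between the genotypes. Within the family, Cd84 correlated with Cd244a at 0.774, Slamf1 at 0.723, Ly9 at 0.662, Cd48 at 0.426 and Slamf7 at 0.275, and with Sh2d1b1 at -0.420. After the group means were taken away, Ly9 came to 0.912 and Sh2d1b1 to 0.173. For Cd48 the 2 genes most alike were Bnip2 (0.909) and Gbp7 (0.883), and its correlation with Cd244a was 0.760. These values describe 18 libraries that share their preparation and their depth by genotype.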

How the data were processed

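The deposited table held variance-stabilized expression on a log2 scale, which the authors made with DESeq2 from gene counts (STAR 2.5.2 and RSEM 1.3.0 in the submitters' processing notes, GRCm38). Inverting this transformation returned 100% of the values to whole counts within 0.0001, which served for depth, normalized counts, levels per kilobase and alternatives. Of 22708 genes, 22685 were matched to RefSeq. Each pair of genotypes was fitted with limma 3.58.1 (R 4.3.3) with a mean-variance trend and sex as covariate, over genes whose mean was at least 1 above the lowest value, with Benjamini-Hochberg adjustment over all tested genes and calls at an adjusted p under 0.05. The models were tested on simulated data. Python 3.11.15 read the table and drew the figures.

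Named genes were the members, Cd244a, the SAP family adaptors, called genes of the signalling and neighbour lists, the targeted genes and 2 target genes of the receptor, genes of the marker lists and of the sort, and the genes most correlated with Cd84 (5) and with Cd48 (2). Members and lists were chosen with earlier results of these data known. No pair of libraries was a duplicate (smallest chi-square per degree of freedom 7.37).

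Alternatives were no or a stricter minimum (3), median centring, quantile normalization, log2(normalized count + 1) and + 8, voom, a robust or no trend, sample weights, no sex covariate, all 18 samples, the replicate number as a block and leaving out each sample. Leaving out 2 or 3 libraries that stood apart, and centring on Siglecf, Ccr3 and Il5ra, were chosen after seeing the data.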

Additional observations from a re-analysis of the deposited data

Results flagged for a closer look

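Cd244a in the WT library F1 lay apart from the other WT libraries, at 10.35 on the variance-stabilized log2 scale (1045 counts, 1240 normalized counts) where the other 5 lay between 10.92 and 11.24. Its gap to the next library was 0.641 of the range of the group, above the 95% critical value of Dixon's test for 6 samples. Of the 30 groups examined (10 genes in 3 genotypes) this was the 1 with such a gap, and chance gives about 1 in 20 groups. The same library had the highest sum of epithelial markers in WT (25661 normalized counts) and the lowest Ccr3 of WT (8965), and the part of these in the Cd244a value was not tested.

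Slamf9, at low counts, went in opposite directions in the sexes between the libraries labelled Ahr-/- and WT. The 3 females labelled Ahr-/- had 0 to 1.68 normalized counts, all below the 3 WT females (4.13 to 20.8), a difference of -0.66 on the variance-stabilized log2 scale. The nearest 2 of these libraries, Ahr-/- F1 and WT F3, each had 2 counts before normalization. The 3 males labelled Ahr-/- had 6.82 to 26.2, all above the 3 WT males (0 to 2.01), a difference of 0.72. Slamf9 was below the minimum mean, so this difference between the sexes was not tested in the fits with the minimum mean. In the fit with no minimum mean the interaction was 1.38 (95% interval 0.76 to 2.0), with an unadjusted p of 0.0003 and an adjusted p of 0.929 by limma, which was not called. Among the 10 genes compared in this way, Slamf9 in this comparison was the 1 with opposite directions and no overlap in either sex. The libraries labelled Ahrr-/- went the same way against the same WT libraries. Their males were 0.68 higher without overlap and their females 0.16 lower with overlap. The interaction there was 0.83 (unadjusted p = 0.0192, adjusted p = 0.769 by limma). The share of all genes with such a split is not given.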

How the results depend on the processing

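Cd84 was called lower in the libraries labelled Ahr-/- against WT in each of the 27 alternatives. The number of members called there, 1 as reported, was 2 with sample weights and with centring on Siglecf, Ccr3 and Il5ra, and 1 to 2 when each library was left out (2 without WT F1 or WT M3). Between the libraries labelled Ahr-/- and Ahrr-/-, 0 as reported, it was 3 with that centring (Cd84, Slamf1 and Slamf7) and 0 to 2 when each library was left out (2 without Ahrr-/- F1, 1 without Ahrr-/- M2). It was 0 in each alternative of the other comparisons. The centring moved the median of all tested genes to -0.26 (labelled Ahr-/- against WT), 0.36 (labelled Ahrr-/- against WT) and -0.60 (between the knockouts), and the cause of its other calls was not tested.

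None of the differences that changed sign was called as reported, and the cause was not tested. For Slamf7 in the libraries labelled Ahr-/- against WT these were 0.021 with quantile normalization, 0.046 with sample weights, 0.032 without WT F3 and Ahr-/- F3, and -0.12 to 0.064 when each library was left out. For Sh2d1b1 in the libraries labelled Ahrr-/- against WT these were 0.23 with the centring and 0.018 without Ahrr-/- F3 and M3. Between the knockouts, the centring gave -0.25 for Cd48, -0.21 for Ly9 and -0.52 for Cd244a, the last with an adjusted p of 0.0314. For Cd244a there, sample weights gave -0.0061, leaving out Ahrr-/- F3 and M3 gave -0.079, leaving out Ahrr-/- F3, M1 and M3 gave -0.31, and leaving out each library gave -0.016 to 0.23.

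Numbers of called genes moved more. Against 1003 for the libraries labelled Ahr-/- and WT, all 18 samples gave 553, leaving out WT F3 and Ahr-/- F3 gave 586, and each library left out gave 623 to 1124. Against 9 for those labelled Ahrr-/- and WT, there were 4 with no minimum, median centring, log2(normalized count + 1), voom, the block or without Ahrr-/- F3, M1 and M3, 5 with the stricter minimum, quantile normalization or without Ahrr-/- F3 and M3, 14 with all 18 samples, 18 with sample weights, and 4 to 25 with each library left out. Against 1708 between the knockouts, there were 828 with the stricter minimum, 994 with no sex covariate, 695 without Ahrr-/- F3 and M3, 626 without Ahrr-/- F3, M1 and M3, and 818 to 2574 with each library left out. The 785 higher and 923 lower calls there became 1029 and 819 with quantile normalization, 981 and 827 with median centring, and 67 and 6207 with centring on the eosinophil genes, which also turned 585 and 418 in the libraries labelled Ahr-/- against WT into 134 and 903. The 6 called genes of the signalling list between the knockouts became 2 with no minimum or no sex covariate, 3 without Ahrr-/- F3 and M3, and 19 with the centring.

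With the replicate number as a block, the members called were 1, 0 and 0 in the 3 comparisons, Cd84 among them, and the genes called 918, 4 and 1946. Of 18 pairs of libraries with the same number, 6 had a correlation of deviations above 0.1, and the range was -0.59 to 0.47 (median -0.02). Pairs with different numbers were not set beside them, so whether the numbers pair the samples was not tested. Slamf6, Slamf8 and Slamf9 had few counts, and the part of depth in their values was not tested.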
